A study of Mus musculus with 4 samples.

Results

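The 10 genes described here encode transcription factors of naive pluripotency: Klf2, Klf4, Klf5, Esrrb, Tbx3, Tfcp2l1, Nr0b1, Nr5a2, Prdm14 and Zfp42. They were measured in embryoid bodies, floating cell aggregates that start to differentiate, which were grown from the mouse embryonic stem cell line R1. The members were taken by symbol: each of the 10 had 1 probe set with a single gene symbol in the platform annotation, among 22180 genes named in this way. Feeder-depleted cells were cultured for 18 h in bacteriological dishes without LIF, the cytokine that sustains self-renewal, under 4 treatments. The EB medium group received the medium alone, the DMSO group the solvent, the GSK-J5 group 1.88 µM of a compound that the labels treat as a vehicle control, and the GSK-J4 group 1.88 µM of an inhibitor of the KDM6 histone demethylases. Each treatment has 1 array, 4 in all, and all groups share the line, the 18 h and the loss of LIF. The series was set up around the DNA damage response to KDM6 inhibition, and these factors are not its stated subject. Undifferentiated cells were not analysed here, so no change over the 18 h can be read from these values. With 1 array per treatment no difference has a replicate check and none was tested.

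Naive pluripotency is the state of the preimplantation epiblast, which mouse embryonic stem cells keep in culture with LIF. LIF acts through its receptor and JAK kinases on STAT3, which feeds a network of factors that activate one another. Klf4 lies mainly downstream of STAT3 and Tbx3 downstream of PI3K signalling, Klf2 is sustained when ERK signalling is low, Esrrb is repressed by Tcf7l1, the nuclear end point of the WNT pathway, and Tfcp2l1 is another STAT3 target. When cells leave this state the network is switched off and genes of the postimplantation epiblast, such as Pou3f1 and Otx2, are switched on.

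The factors were close to the controls in GSK-J4, and they did not all lie on one side of them. Klf5 and Tbx3 lay farthest from the controls, each 0.44 on the log2 scale above the nearest one, which is 1.36-fold. Klf4 followed at 0.25 above, and Prdm14 lay farthest below, at −0.14. None of the 10 reached a 1.5-fold distance from every control, in either direction. Over the 13308 genes bright enough to be counted, 2.21% lay at least 1.5-fold above and 0.842% at least 1.5-fold below all 3 controls. The distance from the nearest of the EB medium, DMSO and GSK-J5 arrays is called the margin below. It is 0 where GSK-J4 read within the controls. All values are log2 expression.

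All 10 factors passed the filter on brightness, a mean over the 4 arrays of at least 6.59. By any amount, 6 lay above all 3 controls, 3 lay below and 1 within, against 38.0% of all genes above and 35.5% below. The share below is thus near the background. With the distance lowered to 0.322, Klf5 and Tbx3 were counted as higher and 0 members as lower, beside 7.17% and 3.96% of all genes.

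Klf2, Klf4 and Klf5 are Krüppel-like zinc finger factors with overlapping targets in embryonic stem cells, and their loss together ends self-renewal. Klf5 read 12.08 in EB medium, 11.97 in DMSO, 12.12 in GSK-J5 and 12.56 in GSK-J4. The GSK-J4 array was the highest, and its margin of 0.44 exceeded the 0.15 that separated the controls. Klf4 read 9.01 in EB medium, 8.92 in DMSO, 8.88 in GSK-J5 and 9.26 in GSK-J4. Here too GSK-J4 was the highest, with a margin of 0.25 beside a range of 0.13 over the controls. Klf2 read 11.29, 11.28 and 11.32 in EB medium, DMSO and GSK-J5 and 11.37 in GSK-J4. The Klf2 margin was only 0.05, and 31.3% of all genes had a margin at least as high, against 10.9% for Klf4 and 4.3% for Klf5.

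Of the members whose promoter is in the table of RefSeq promoters (GRCm38.p6; the build behind the arrays is not known here), Klf4 had the highest margin, so its stretch is shown. The 250 bases before the start of Klf4 lie at chr4:55532476-55532725 on the minus strand. Capitals mark the letters GGGCGGG on either strand, which SP and KLF proteins are known to bind.

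Klf4: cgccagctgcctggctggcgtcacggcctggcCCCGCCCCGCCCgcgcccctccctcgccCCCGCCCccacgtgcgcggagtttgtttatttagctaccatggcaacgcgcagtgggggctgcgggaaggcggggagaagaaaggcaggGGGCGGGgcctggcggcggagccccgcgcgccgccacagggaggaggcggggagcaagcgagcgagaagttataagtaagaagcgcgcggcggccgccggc

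This stretch held 4 matches, a pair of which overlap, and none of CACCC, the core of many KLF sites. Of all 32851 promoter stretches of this length, 23.4% held GGGCGGG at least once and 52.0% held CACCC. Such matches describe the sequence alone.

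**Figure D1:**
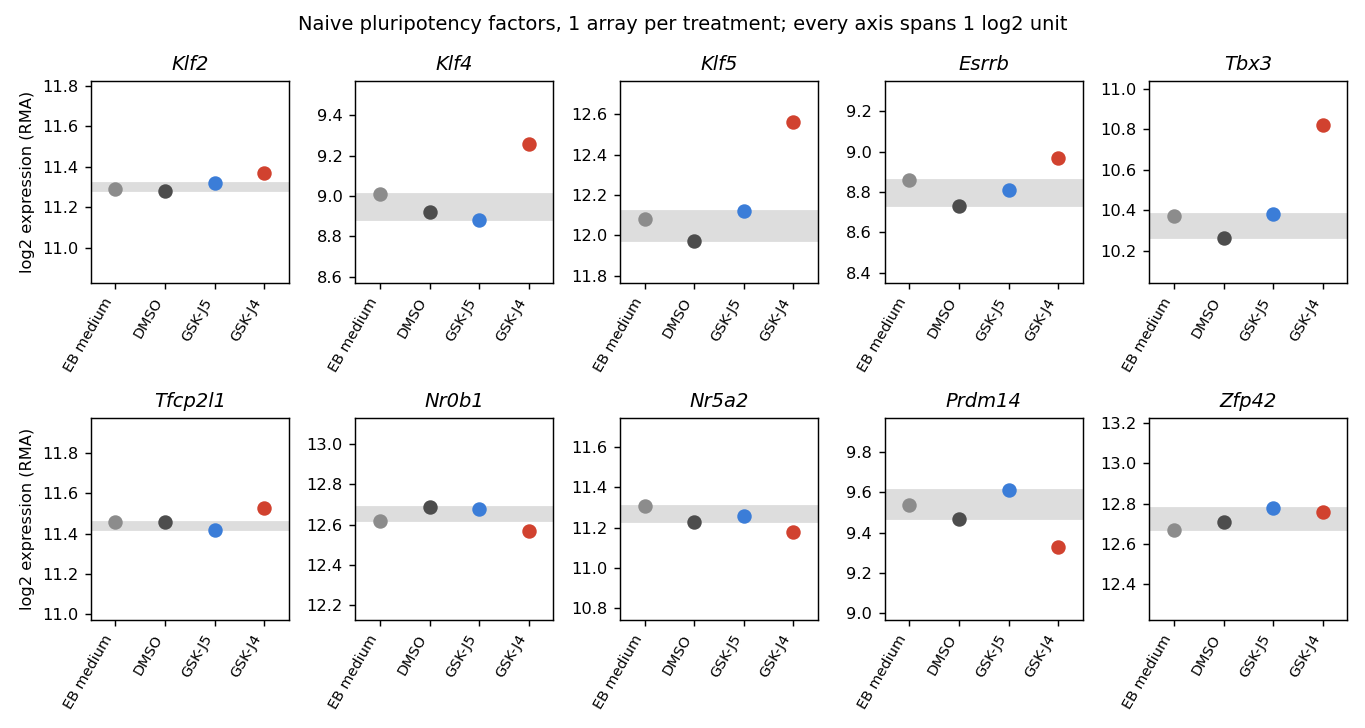
Log2 expression (RMA) of each factor on the 4 arrays, 1 point per treatment, with the range of the 3 controls shaded; each vertical axis spans 1 log2 unit but starts at another level. GSK-J4 lies 0.44 above the shaded range for Klf5 and Tbx3 and 0.25 above it for Klf4, and 0.14 below it for Prdm14.

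Tbx3, a T-box factor that can sustain self-renewal when LIF is withdrawn and that also acts in extraembryonic endoderm, read 10.37 in EB medium, 10.26 in DMSO, 10.38 in GSK-J5 and 10.82 in GSK-J4. The GSK-J4 array stood above the other 3 by 0.44, while the controls spanned 0.12. Over all genes 4.3% had a margin at least as high. By the distance between profiles over the 4 arrays, each centred on its own mean, the genes nearest to Klf5 were Efs, Stambp and 4632415L05Rik, at distances of 0.02 each among 13307 genes. Tbx3 came at rank 5 in that order. The genes nearest to Tbx3 were Ccl27a (0.02), 4632415L05Rik (0.03) and Klf5 (0.03). Each profile rests on 4 values.

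Esrrb, Nr5a2 and Nr0b1 are nuclear receptor genes. Esrrb, an orphan receptor that can take the place of Nanog in self-renewal, read 8.86 in EB medium, 8.73 in DMSO, 8.81 in GSK-J5 and 8.97 in GSK-J4. It lay above all controls by 0.11, less than the 0.13 between the controls. Nr5a2, which binds and activates Pou5f1 and other pluripotency genes, read 11.31, 11.23, 11.26 and 11.18 in EB medium, DMSO, GSK-J5 and GSK-J4. Nr0b1, a receptor without a usual DNA-binding domain that restrains other nuclear receptors, read 12.62, 12.69, 12.68 and 12.57 in the same order. Both lay below all controls by 0.05, a distance reached downward by 28.6% of all genes and smaller than the range over the controls (0.08 for Nr5a2, 0.07 for Nr0b1). Without the EB medium array the margin of Nr0b1 was −0.11, and without the DMSO array that of Nr5a2 was −0.08.

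The table holds a pair of starts for Esrrb, and the probe set does not tell which was used. Among the starts of the 7 members searched, one of them was the only start with the STAT letters TTCNNNGAA, where N is any base. They stand in capitals in a stretch at chr12:86360929-86360957, plus strand, and 7.02% of all promoter stretches held such a match.

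Esrrb: aacggaaactTTCGTGGAAagcacttgag

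Tfcp2l1, a grainyhead-family factor downstream of STAT3, read 11.46 in EB medium and in DMSO, 11.42 in GSK-J5 and 11.53 in GSK-J4. Its margin of 0.07 was reached upward by 28.6% of all genes. Prdm14, a PR-domain protein that restrains FGF signalling and DNA methyltransferase genes, read 9.54 in EB medium, 9.47 in DMSO, 9.61 in GSK-J5 and 9.33 in GSK-J4. GSK-J4 was the lowest of the 4 arrays, by the same 0.14 that separated the highest from the lowest control, and 15.6% of all genes had a margin at least as low. Zfp42, the zinc finger gene also known as Rex1 and a common marker of undifferentiated cells, read 12.67, 12.71, 12.78 and 12.76 in EB medium, DMSO, GSK-J5 and GSK-J4. It was the only factor within the range of the controls.

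The Zfp42 promoter was chosen for display after its values and matches were seen. Among the 7 members whose promoters were searched, it was the only one with the octamer letters ATGCAAA. POU proteins such as Pou5f1 are known to bind these letters. The reverse complement is in capitals in the stretch at chr8:43307178-43307204, minus strand, and 4.12% of all promoter stretches held the octamer on either strand.

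Zfp42: tgaagaggcaTTTGCATaactgagcaa

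Promoters of 7 members were in the table, with 9 starts. CACCC or its complement was in 6 of them, GGGCGGG in 3, and the letters AAGGTCA, known to be bound by Esrrb and Nr5a2 proteins, in 0, against 4.08% of all stretches. CACCC and GGGCGGG did not overlap at these starts. Klf5, Tbx3 and Prdm14 were not searched.

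Against single controls Klf5, Tbx3 and Klf4 again lay farthest above and Prdm14 farthest below. A margin sets the least difference from any single control, so this is not a separate result. Relative to GSK-J5, at the same dose and time, Klf5 and Tbx3 were 1.36-fold and Klf4 1.30-fold higher in GSK-J4, and Prdm14 was lower by −0.28 on the log2 scale. This is the only pair of compounds, with 1 array each, so no interval for these differences can be given. No member was 1.5-fold apart between GSK-J4 and GSK-J5, where 3.28% of all genes were higher and 1.39% lower. Relative to EB medium again no member was 1.5-fold apart, with 2.96% of all genes higher and 1.68% lower. Relative to DMSO 1 member, Klf5, was at least 1.5-fold higher (0.59), beside 3.89% of all genes, and Tbx3 followed at 0.56. No member was 1.5-fold lower relative to DMSO, against 1.57% of all genes. These 3 comparisons share the GSK-J4 array.

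**Figure D2:**
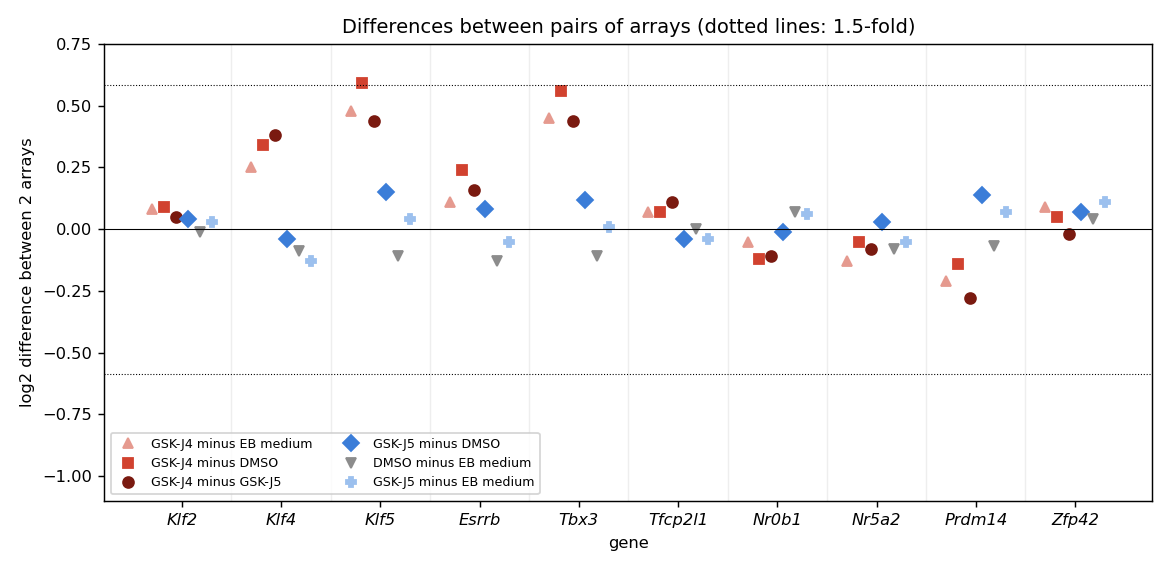
Log2 differences between 2 arrays for each factor: red symbols are GSK-J4 minus each control, blue and grey symbols are differences between controls, and dotted lines mark 1.5-fold. The red symbols of Klf4, Klf5 and Tbx3 all lie above the differences between controls. GSK-J4 minus DMSO for Klf5, at 0.59, is the only one past a dotted line.

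As a group the members had a median of 0.08 for GSK-J4 minus GSK-J5, where the median of all genes was 0.00. Against DMSO the median was also 0.08, beside 0.01 for all genes. The typical size of a difference was like that of other genes: the median absolute difference from GSK-J5 was 0.14 over the members and 0.15 over all genes. Between the controls the differences were smaller, for the members as for all genes. For GSK-J5 minus DMSO the median absolute difference was 0.06 over the members and 0.08 over all genes. The largest absolute difference was 0.15 for GSK-J5 minus DMSO (Klf5) and 0.13 for DMSO minus EB medium (Esrrb). The DMSO array was the lowest of the 4 for 4 members, Klf2, Klf5, Esrrb and Tbx3, against 26.7% of all genes. GSK-J4 was the highest array for these 4, so their difference from DMSO is by construction the largest of the 3. The median of the members for DMSO minus EB medium was −0.08, against −0.02 over all genes.

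**Figure D3:**
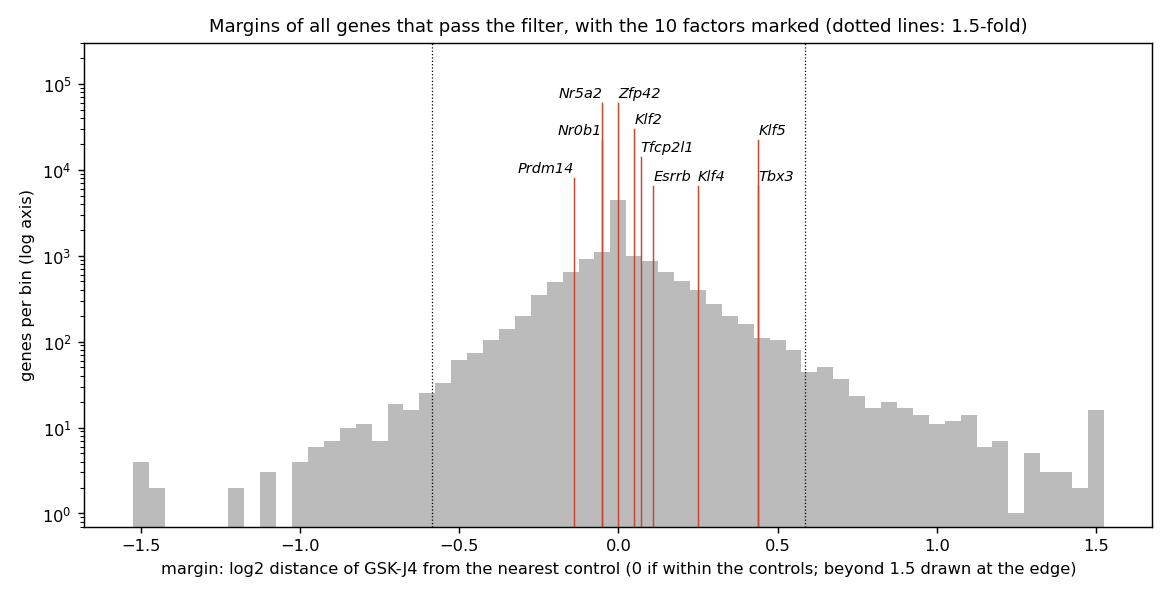
Number of genes (log axis) by margin, the log2 distance of GSK-J4 from the nearest control, for the 13308 genes that passed the filter, with the 10 factors as red lines and 1.5-fold as dotted lines. All factors lie between −0.14 and 0.44, inside the dotted lines.

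The rest of the network was described from fixed lists. Over all genes 38.0% lay above and 35.5% below all controls, and 2.21% were counted higher and 0.842% lower. Among 12 LIF and STAT3 pathway genes 0 were counted in either direction, with 6 above and 5 below all controls. Jak2, a kinase of this pathway, had a margin of 0.27 and Pim1, a kinase gene induced by STAT3, of −0.20. The median of the list for GSK-J4 minus GSK-J5 was −0.02, and 0.01 with the mean of the controls as reference. Of 11 core pluripotency genes, 0 were counted, 1 lay above and 6 below all controls, with a median of −0.06. Tdgf1, a Nodal co-receptor, read 12.33 in GSK-J4 against 12.69 to 12.71, and Epcam, an epithelial adhesion gene, 11.22 against 11.56 to 11.67.

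Of 16 naive-associated genes that are not among the 10 and passed the filter, 8 lay above and 6 below all controls, and 0 were counted. Gbx2, a homeobox gene downstream of STAT3, had a margin of −0.57, and a dimmer probe set of it −0.04. Dppa3, a maternal factor that is patchy in stem cell cultures, had a margin of −0.48. The median over the 19 measured was 0.01, and their mean −0.06. Among 21 regulators of the exit from naive pluripotency 0 were counted higher and 2 lower, beside 2.21% and 0.842% of all genes. These 2 were the forkhead gene Foxd3 (8.63 in GSK-J4 against 9.33 to 9.45) and the POU factor gene Pou3f1 (8.45 against 9.24 to 9.49). In this list 14 genes lay below and 5 above all controls, beside 35.5% and 38.0% of all genes, and the median was −0.10.

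No paralogue of the members was counted, though Tbx2 and Esrrg lay farther from GSK-J5 than any member did. Of 19 other KLF and SP genes that passed the filter 0 were counted, with 6 above and 8 below all controls; Klf3 and Klf12, the farthest from GSK-J5, had margins of 0.14 and 0.21. The median over the 22 measured was −0.03, and 0.02 over those that passed. Of 16 other paralogues that passed, 0 were counted, 7 lay above and 7 below. Tbx2 had a margin of −0.39, opposite in sign to that of Tbx3, but at 6.30 in GSK-J4 it read under the filter level. Esrrg, a paralogue of Esrrb, had a margin of −0.35, but at 6.70 in GSK-J4 it read near the filter level of 6.59.

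**Figure D4:**
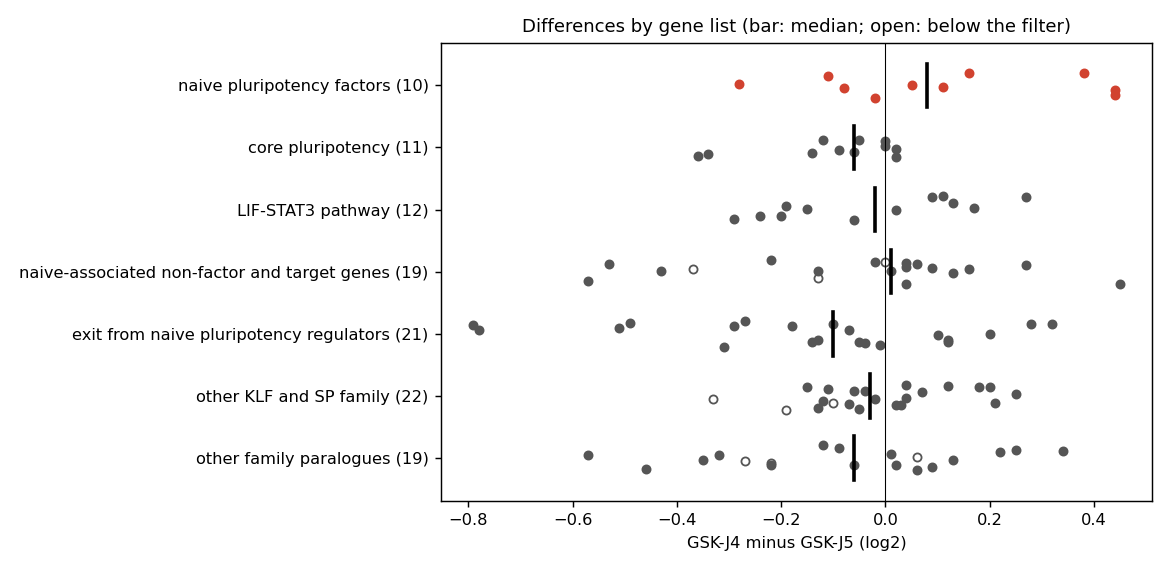
GSK-J4 minus GSK-J5 (log2) for each measured gene, by list, with the number of genes in brackets, the median as a bar and genes below the filter as open circles. The factors have a median of 0.08, and the regulators of the exit from naive pluripotency a median of −0.10 with Pou3f1 and Foxd3 at the low end.

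Several members also act in other cell types, Klf4 in fibroblasts and epithelia, Klf5 and Tbx3 in extraembryonic lineages. Markers of such cells are given here, and their part in the values of the factors was not tested. The 11 stem cell markers all passed the filter, as did all 6 neuroectoderm markers, so passing does not by itself show a cell type. Fut4, a stem cell marker, read near the filter level, from 6.60 in GSK-J4 to 6.78 in GSK-J5. All stem cell markers but Cdh1 and Fut4 are also on the core pluripotency list above, so these lists are not separate observations. The mean log2 level of the 11 was 11.79 in EB medium, 11.77 in DMSO and in GSK-J5 and 11.65 in GSK-J4. Of these markers 1 lay above and 8 below all controls. Over all genes these shares were 38.0% above and 35.5% below, here and for the marker lists that follow. Of 11 endoderm markers 6 passed the filter, and of these 3 lay above and 3 below all controls. Lama1, a laminin chain of basement membranes, read 8.37 in GSK-J4 against 7.73 to 7.97, a margin of 0.40 that is close to those of Klf5 and Tbx3. Gata4 (0.10) and Dab2 (0.07) also lay above, while Amn, a gene of visceral endoderm, had a margin of −0.32 and read under the filter level in GSK-J4. Afp (−0.14) and Foxa2 (−0.05) also lay below. The mean of all 11 endoderm markers was 6.92 in EB medium, 6.91 in DMSO, 6.94 in GSK-J5 and 6.84 in GSK-J4.

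Of 10 trophoblast markers 6 passed the filter, with 2 above, 2 below and 2 within the controls. Krt18 (0.10) and Tfap2c (0.08) lay above, Gata3 (−0.36) and Hand1 (−0.10) below. A dimmer probe set of Gata3 had a margin of −0.12. The mean of all 10 was 7.46, 7.47, 7.47 and 7.38 in EB medium, DMSO, GSK-J5 and GSK-J4. Of 12 feeder fibroblast markers 7 passed, with 5 below and 2 within the controls. Thbs1 had a margin of −0.40 and Col1a2 of −0.21, and the mean of the 12 was 6.52 in EB medium, 6.56 in DMSO and GSK-J5 and 6.35 in GSK-J4. These marker means lie near the filter level. Among 6 neuroectoderm markers 0 lay above and 5 below all controls. Sox1 (−0.42) and Zfp521 (−0.15) were farthest from GSK-J5, and the mean was 7.47 in GSK-J4 against 7.64 to 7.75. Of 7 mesendoderm markers 5 passed, with 0 above and 3 below all controls. Eomes was counted lower (margin −0.60), as were 0.842% of all genes. Of 6 blood and endothelial markers 2 passed, and Laptm5 was counted higher (1.29), as were 2.21% of all genes. The mean of the 6 was 7.20 in GSK-J4 against 6.94 to 6.98, and without Laptm5 it was 6.94 in EB medium, 6.95 in DMSO, 6.92 in GSK-J5 and 6.95 in GSK-J4. In such bulk samples fewer cells of a type and less RNA per cell cannot be told apart.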

How the data were processed

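Gene expression was measured on Affymetrix arrays from total RNA of trypsin-dissociated embryoid bodies. The authors deposited log2 values. Per the submitters' processing notes they used RMA, which is meant to set arrays to a common distribution, and Affymetrix Expression Console 1.2.1.20. The deposited arrays still differed slightly at the upper end. Their 75th percentile over all probe sets was 8.79 in GSK-J4, 8.75 in EB medium and 8.70 in DMSO and GSK-J5. Klf4 and Esrrb read near that level. The sources used here name no log base; base 2 was inferred from the range, 2.20 to 14.48. Without scanner files detection was not examined. The precision is limited by the number of arrays.

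Of 41345 probe sets, 23521 had a single symbol in the platform annotation, 1814 several, and 16010 were not listed there. The brightest probe set stood for each of the 1082 genes with several. Genes passed the filter at or above the 40th percentile of their means. A gene was counted as higher or lower when GSK-J4 lay at least 1.5-fold (0.585) beyond every control. The counting was run on simulated data with planted changes far beyond 1.5-fold, larger than any difference of a member here. Changes of the size seen in the members were thus not covered. No test between groups was made.

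The members, the lists and the rules were chosen with earlier results of these data known. Named genes are all members, the genes counted in each list or else the 2 with the largest absolute difference from GSK-J5 among those that passed, and the 3 nearest profiles of the 2 members with the largest margins. Gata4, Dab2, Afp, Foxa2, Krt18, Tfap2c, Flcn, Fnip1 and Tbx3os2 were named after their values were seen. The blood marker mean without Laptm5 was added then. Pecam1 was also named outside the rule. Promoters were searched for 5 motifs on both strands. Other settings were 3 rescalings (median centring, repeated quantile normalization, loess with span 0.3), the median over probe sets, other folds and filters, and leaving out each control. Python 3.11.15, pandas 2.3.3 and statsmodels 0.14.6 were used.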

Additional observations from a re-analysis of the deposited data

How the results depend on the processing

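No member was counted under any rescaling, filter or omission of a control array at 1.5-fold. With the smaller margin of 0.322, 2 members, Klf5 and Tbx3, were counted as higher (beside 7.17% of all genes) and 0 as lower (3.96%). The margin of Klf5 ranged from 0.44 to 0.48, that of Tbx3 from 0.42 to 0.45, that of Klf4 from 0.19 to 0.34 and that of Prdm14 from −0.22 (repeated quantile normalization) to −0.13 over 7 alternatives each. Those of Esrrb ranged from 0.05 (repeated quantile normalization) to 0.16, of Klf2 from 0.04 to 0.08, of Tfcp2l1 from 0.06 to 0.07, of Nr0b1 from −0.11 to −0.03 and of Nr5a2 from −0.08 to −0.04, and no margin of a member changed sign. The median of the members for GSK-J4 minus GSK-J5 ranged from 0.05 to 0.11. For single members this difference fell with repeated quantile normalization from 0.38 to 0.285 for Klf4 and from 0.16 to 0.06 for Esrrb. Part of these small rises thus depends on the scale of the arrays. No paired analysis was possible because each treatment has 1 array. Zfp42 moved to 0.05 above the controls when the GSK-J5 array was left out, and just above them under loess. Every member also passed the filter at the 60th percentile.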

Other observations

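Named after their values were seen, Flcn and Fnip1, whose proteins form a complex that keeps the transcription factor Tfe3 out of the nucleus during exit from naive pluripotency, read 10.12 against 9.80 to 9.86 and 10.29 against 9.96 to 10.01, while Tfe3 had a margin of 0.08. Flcn and Fnip1 are among the 5 genes of the exit list that lay above all controls, while 14 lay below. Their margins were 0.26 and 0.28, and 10.9% of all genes had a margin of at least 0.25. Pecam1, an adhesion gene of stem cells and endothelium that was named outside the rule, read 11.17 against 10.72 to 10.80, a margin of 0.37. Tbx3os2, an RNA annotated antisense to Tbx3, was named after its values were seen. It read 7.29 in GSK-J4 against 6.54 in EB medium, 6.99 in DMSO and 6.69 in GSK-J5, a margin of 0.30. Its EB medium value lies under the filter level of 6.59, and its controls spread more widely than those of Tbx3. The margins of Pecam1 and Tbx3os2 also exceed the 0.25 that 10.9% of all genes reached.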
